A study of Mus musculus with 8 samples.

Results

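The 10 genes described here encode a ligand, 2 receptors, 5 feedback inhibitors and 2 transcription factors of the pathway from fibroblast growth factor (FGF) to the kinase ERK. They are Fgf4, Fgfr1, Fgfr2, Spry1, Spry2, Spry4, Spred1, Dusp6, Etv4 and Etv5, and they were chosen by name from the 16940 genes of the deposited table. All 10 had a value in every library, and all 10 are among the 15818 that passed the filter on low values. Newly made RNA had been captured by transient transcriptome sequencing (TT-seq) after cells were given 400 µM of 4-thiouridine for 15 min. The cells were E14 mouse embryonic stem cells in which the looping protein CTCF carries an auxin-inducible degron (AID), a tag through which the auxin IAA causes the protein to be degraded.

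Each of 4 groups had 2 libraries. An overexpression control line was measured without IAA (the untreated control) and after 12 h of IAA. Lines of the same AID background that overexpressed wild type CTCF or mutated CTCF were measured after 12 h of IAA, and the labels do not name the mutation. Each CTCF form was in a line of its own, so form and line cannot be told apart, and no group had IAA without the degron, so IAA itself and CTCF loss cannot be told apart. The labels do not say whether replicates came from separate cultures, so p-values measure the spread between these libraries only. All groups were grown without serum in LIF (1000 U per mL), the GSK3 inhibitor CHIR99021 (3 µM) and the MEK inhibitor PD0325901 (1 µM).

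In embryonic stem cells FGF4 is secreted and acts on the same cells through FGFR1 and FGFR2, and the signal runs through RAS, RAF and MEK to ERK. ERK activity pushes cells out of the naive state, which is why a MEK inhibitor is used to hold them there. ERK in turn raises transcription of Spry, Spred and Dusp genes, whose proteins dampen the cascade, and of the ETS factors Etv4 and Etv5. In these libraries MEK was inhibited in every group, and ERK activity was not measured. Values below are transcription of the genes, in normalized reads, under that inhibitor.

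The promoters of 3 genes are shown first because the treatment removes a DNA-binding protein and these genes answered it differently. Fgf4 transcription fell with IAA, that of Dusp6 fell further, and that of Spry2 did not pass the test. The windows hold the 250 bases before the RefSeq start (GRCm38.p6), 5′ to 3′ on the gene's strand, and capitals mark GGAA, the core that ETS factors such as ETV4 and ETV5 read, on either strand (TTCC where it is on the other strand). The window of Fgf4 lies at chr7:144861136-144861385 on the plus strand, inside the longer span that GENCODE M21 gives that gene. Those of Dusp6 and Spry2 lie at chr10:99262981-99263230 on the plus strand and at chr14:105896820-105897069 on the minus strand.
Fgf4: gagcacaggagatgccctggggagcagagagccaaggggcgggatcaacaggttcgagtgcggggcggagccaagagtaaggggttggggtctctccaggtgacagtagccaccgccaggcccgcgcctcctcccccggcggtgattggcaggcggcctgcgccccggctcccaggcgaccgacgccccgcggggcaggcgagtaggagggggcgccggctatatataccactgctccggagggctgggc
Dusp6: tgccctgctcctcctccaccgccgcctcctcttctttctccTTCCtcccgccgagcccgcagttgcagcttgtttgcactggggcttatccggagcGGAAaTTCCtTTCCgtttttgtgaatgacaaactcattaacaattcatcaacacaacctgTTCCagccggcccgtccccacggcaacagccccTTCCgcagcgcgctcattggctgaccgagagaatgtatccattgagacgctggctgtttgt
Spry2: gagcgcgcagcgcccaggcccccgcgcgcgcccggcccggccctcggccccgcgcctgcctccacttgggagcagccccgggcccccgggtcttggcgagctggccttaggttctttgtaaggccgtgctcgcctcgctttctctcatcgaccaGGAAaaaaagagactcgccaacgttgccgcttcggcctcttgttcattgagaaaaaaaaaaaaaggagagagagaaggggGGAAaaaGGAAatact

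Windows were held for 7 of the 10 genes, 8 in all because Etv5 has a pair of starts. GGAA occurred 6 times in the Dusp6 window, 3 times in that of Spry2 and 0 times in that of Fgf4. It occurred 4 times in the window of Spred1, 2 times in that of Fgfr2, 1 time in that of Spry1 and 4 and 0 times in those of Etv5. It was in 6 of the 8 windows and in 93.4% of all 32817 RefSeq windows of this length. The longer ETS letters CCGGAAGT, which contain GGAA, were in 0 of the 8 windows and in 2.88% of all windows on either strand. The CTCF core consensus, searched on both strands, was in 0 of the 8 and in 0.509% of all windows. These are matches of letters in a short window and say nothing of where a factor was bound.

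Addition of IAA to the control line asks what changes when CTCF is depleted. With IAA, 6 of the 10 genes were lower and 2 were higher, at an adjusted p under 0.05. In the same comparison 37.7% of all 15818 tested genes passed, 19.4% higher and 18.4% lower. The ligand Fgf4, the inhibitors Dusp6, Spry4, Spry1 and Spred1 and the factor Etv4 fell, while both receptors rose. Spry2 and Etv5 did not pass. When the fit had no mean-variance trend, 5 of these 8 calls were left, and Fgfr2 (adjusted p = 0.053), Spry1 (adjusted p = 0.13) and Spred1 (adjusted p = 0.054) were not among them. The median log2 fold change of the 10 genes was -0.23, against -0.0017 over all tested genes.

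**Figure D1:**
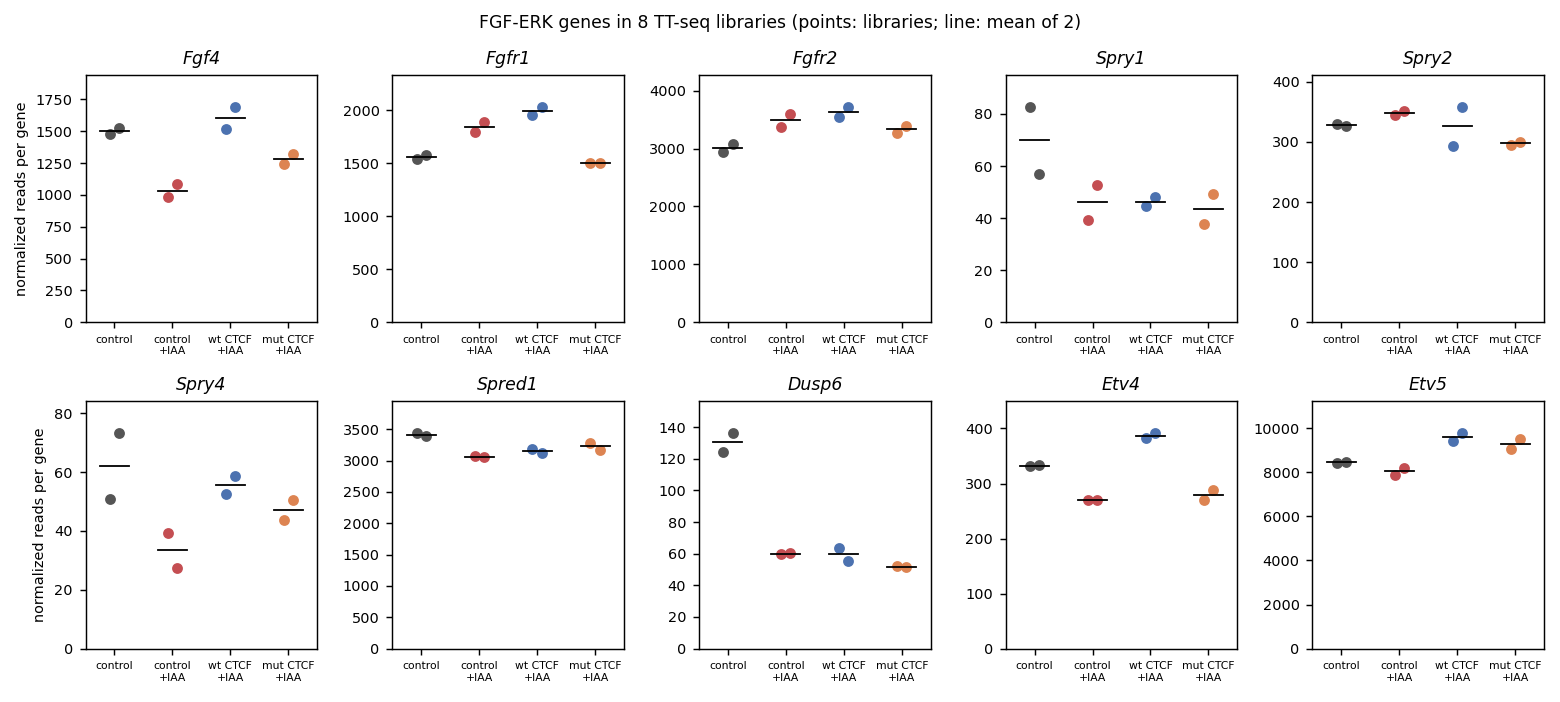
Normalized reads per gene (vertical axes, each starting at 0) of the 10 genes in the 4 groups, with 1 point per library and a line at the mean of 2. Dusp6 stands between 51.4 and 63.8 in all 6 libraries with IAA and at 125 and 136 without it, while Fgf4 and Etv4 are back at or above the untreated level with wild-type CTCF.

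Fgf4 (ENSMUSG00000050917.5, chromosome 7, 144847367 to 144865243) is the ligand that embryonic stem cells make for themselves. It stood at 1480.3 and 1527 normalized reads in the untreated control and at 983 and 1082 in the control with IAA. With IAA it stood at 1516 and 1691 in the wild-type CTCF line and at 1242 and 1321 in the mutated CTCF line. Both control libraries with IAA lie below the 6 others, and the wild-type libraries overlap the untreated ones. The mean fell by 31.3% with IAA (log2 fold change -0.54, SE 0.057, adjusted p = 2.3e-10). It was 1.55 times as high with wild-type CTCF as in the control with IAA (log2 fold change 0.63, SE 0.057, adjusted p = 1.1e-11) and 1.24 times as high with mutated CTCF (0.31, adjusted p = 2.8e-05). Both values rest on the same IAA-treated control pair as the fall does, so an error in that pair would enter all of them. Against the untreated control, which does not use that pair, wild-type CTCF differed by 0.091 on the log2 scale (95% interval -0.023 to 0.21, adjusted p = 0.20). Leaving out 1 library gave 0.012 to 0.17, the highest without the first wild-type library. The other alternatives gave 0.0089 to 0.091. Mutated CTCF was lower than the untreated control (log2 fold change -0.23, adjusted p = 0.0011).

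Fgfr1 (ENSMUSG00000031565.18, chromosome 8, 25513654 to 25575718) encodes the main FGF receptor of embryonic stem cells. It stood at 1544 and 1576 normalized reads in the untreated control, 1790.3 and 1885 in the control with IAA, 1950.4 and 2032 with wild-type CTCF, and 1503 and 1507 with mutated CTCF. The mutated CTCF libraries lay below all others, next to the untreated ones, and the wild-type libraries above all others. The rise with IAA was 17.8% (log2 fold change 0.24, SE 0.048, adjusted p = 1.1e-04). Against the control with IAA, mutated CTCF was lower (log2 fold change -0.29, adjusted p = 7.2e-06), while wild-type CTCF did not pass (0.12, 95% interval 0.019 to 0.21, adjusted p = 0.060).

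Fgfr2 (ENSMUSG00000030849.18, chromosome 7) encodes a receptor of the same family. It stood at 2939 and 3080.1 normalized reads untreated, 3372 and 3606 in the control with IAA, 3547 and 3722 with wild-type CTCF, and 3270.2 and 3398 with mutated CTCF. The untreated libraries were the 2 lowest. Its rise with IAA was 15.9% (log2 fold change 0.21, SE 0.042, adjusted p = 7.0e-05). GENCODE M21 gives the gene 2960900 bases, on chromosome 7 from 130162451 to 133123350, where RefSeq gives it 104358, and in the longer form it spans 11 tested genes, all on the opposite strand. Whether reads were counted by strand is not given in the sources used here, so reads of those genes could enter the value of Fgfr2. The genes that flank the longer form also rose with IAA, Wdr11 by 0.22 on the log2 scale (adjusted p = 2.1e-04) and Edrf1 by 0.18 (adjusted p = 0.0031). Fgfr1 rose while the ligand Fgf4 fell, each beyond the spread of its 2 replicates. The rise of Fgfr2 was also beyond that spread, but is subject to the limit on its reads given above.

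Dusp6 (ENSMUSG00000019960.8, chromosome 10, 99263231 to 99267489) encodes a phosphatase that takes phosphate off ERK. It stood at 125 and 136 normalized reads in the untreated control, 59.6 and 60.5 in the control with IAA, 63.8 and 55.6 with wild-type CTCF, and 52.2 and 51.4 with mutated CTCF. All 6 libraries with IAA lay below both untreated ones, at 50 to 73 recovered reads against 149 and 158. Read numbers here and below are the deposited values divided by each library's step, and are less sure in the second mutated library, whose step of 0.989 is close to 1. The mean fell by 54.0% with IAA (log2 fold change -1.10, SE 0.17, adjusted p = 1.9e-06), the widest change of the 10 genes. Neither CTCF form differed from the control with IAA. The log2 fold change was -0.010 with wild-type CTCF (95% interval -0.36 to 0.34, adjusted p = 0.97) and -0.21 with mutated CTCF (-0.56 to 0.14, adjusted p = 0.38). Against the untreated control both were lower, by log2 fold changes of -1.12 (adjusted p = 1.5e-06) and -1.31 (adjusted p = 6.9e-08).

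Spry4 (ENSMUSG00000024427.7, chromosome 18, 38586247 to 38601415) and Spry1 (ENSMUSG00000037211.12, chromosome 3, 37639947 to 37644598) encode Sprouty proteins, feedback inhibitors of receptor tyrosine kinase signalling. Spry4 stood at 51.0 and 73.3 normalized reads untreated, 39.3 and 27.5 in the control with IAA, 52.5 and 58.8 with wild-type CTCF, and 43.9 and 50.4 with mutated CTCF. The control libraries with IAA were the 2 lowest, and the untreated pair differed widely. The log2 fold change with IAA was -0.87 (SE 0.22, adjusted p = 0.0015). It missed the threshold without the second untreated library (-0.62, adjusted p = 0.10) or without the second control library with IAA (-0.62, adjusted p = 0.058). Wild-type CTCF was above the control with IAA (log2 fold change 0.74, SE 0.22, adjusted p = 0.0090). That call was lost without the second control library with IAA (0.49, adjusted p = 0.16) or without the second wild-type library (0.66, adjusted p = 0.066), and with no mean-variance trend (adjusted p = 0.087). Mutated CTCF did not pass (0.50, adjusted p = 0.073). Leaving out 1 library gave values from 0.25 to 0.75, the highest without the first control library with IAA.

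Spry1 stood at 82.7 and 56.9 normalized reads untreated, 39.3 and 52.8 in the control with IAA, 44.6 and 48.1 with wild-type CTCF, and 37.6 and 49.4 with mutated CTCF. The untreated libraries were the 2 highest, but the lower of them was close to the highest with IAA. Its log2 fold change with IAA was -0.58 (SE 0.22, adjusted p = 0.033). The call was lost without the first untreated library (-0.31, adjusted p = 0.43) or the first control library with IAA (-0.37, adjusted p = 0.30). At 33 to 99 reads a library, Spry1 rests on counts like those of Spry4, at 25 to 85. Like Dusp6, Spry1 was below the untreated control with wild-type CTCF (log2 fold change -0.56, adjusted p = 0.036) and with mutated CTCF (-0.66, adjusted p = 0.015), calls that were also lost without the first untreated library (-0.29, adjusted p = 0.45, and -0.39, adjusted p = 0.32). Without the first mutated library the last of these was -0.47 (adjusted p = 0.17), and without the first or second wild-type library the other was -0.50 (adjusted p = 0.11) or -0.61 (adjusted p = 0.056).

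Spry2 (ENSMUSG00000022114.5, chromosome 14, 105891947 to 105896819) encodes another Sprouty protein and passed in 0 of 6 comparisons. Its libraries ranged from 294 to 358 normalized reads, and the 2 wild-type CTCF libraries held both ends of that range. The log2 fold change with IAA was 0.085 (95% interval -0.10 to 0.27, adjusted p = 0.50). With mutated CTCF against the control with IAA it was -0.22 (95% interval -0.41 to -0.037, adjusted p = 0.057), and this passed when either wild-type library was left out of the fit (adjusted p = 0.036 without the first and 0.038 without the second). Spred1 (ENSMUSG00000027351.14, chromosome 2, 117121374 to 117182279), whose protein brings the RAS inactivator neurofibromin to the membrane, stood at 3437 and 3391 untreated and at 3072 and 3051 in the control with IAA. It fell by 10.3% (log2 fold change -0.16, SE 0.039, adjusted p = 0.0014). With wild-type CTCF it stood at 3179.6 and 3115, and with mutated CTCF at 3286 and 3165, so all 6 libraries with IAA were below the untreated pair. Of the 4 inhibitors that passed with IAA, all lower, the call at Dusp6 was kept both without the trend and without any 1 library.

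Etv4 (ENSMUSG00000017724.14, chromosome 11, 101769742 to 101785371) and Etv5 (ENSMUSG00000013089.15, chromosome 16, 22381309 to 22439719) encode ETS transcription factors of the PEA3 subfamily. Etv4 stood at 332 and 334 normalized reads untreated, 270.4 and 269 in the control with IAA, 382 and 392 with wild-type CTCF, and 269.6 and 288 with mutated CTCF. The libraries fell into a low pair of groups, the control with IAA and mutated CTCF, and a high pair, untreated and wild-type CTCF. The mean fell by 18.9% with IAA (log2 fold change -0.30, SE 0.088, adjusted p = 0.0061). That value just missed the threshold without the second untreated library (-0.30, adjusted p = 0.051). Wild-type CTCF was 1.43 times the control with IAA (log2 fold change 0.52, adjusted p = 1.5e-05), and mutated CTCF differed from it by 0.045 (95% interval -0.13 to 0.22, adjusted p = 0.74).

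Etv5 stood at 8439.6 and 8491 normalized reads untreated, 7887 and 8222 in the control with IAA, 9439 and 9786 with wild-type CTCF, and 9051 and 9503 with mutated CTCF. The log2 fold change with IAA was -0.072 (95% interval -0.14 to -0.0059, adjusted p = 0.080). That small fall passed after rescaling by median of ratios (-0.070, adjusted p = 0.041) and, at -0.12, when every library was given the same total (adjusted p = 2.0e-04). Both CTCF forms stood above the control with IAA, by log2 fold changes of 0.26 (adjusted p = 7.6e-08) with wild-type and 0.20 (adjusted p = 4.2e-06) with mutated CTCF. Both also stood above the untreated control, by 0.18 (adjusted p = 1.6e-05) and 0.13 (adjusted p = 0.0013), the latter lost with equal totals (0.048, adjusted p = 0.14) and without the second mutated library (0.097, adjusted p = 0.083). The 2 ETS genes therefore differed in mutated CTCF, where Etv4 was below its untreated level (log2 fold change -0.26, adjusted p = 0.019) and Etv5 above. The call at Etv4 was lost without either untreated library (adjusted p = 0.091 and 0.096) or the first mutated library (adjusted p = 0.14).

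**Figure D2:**
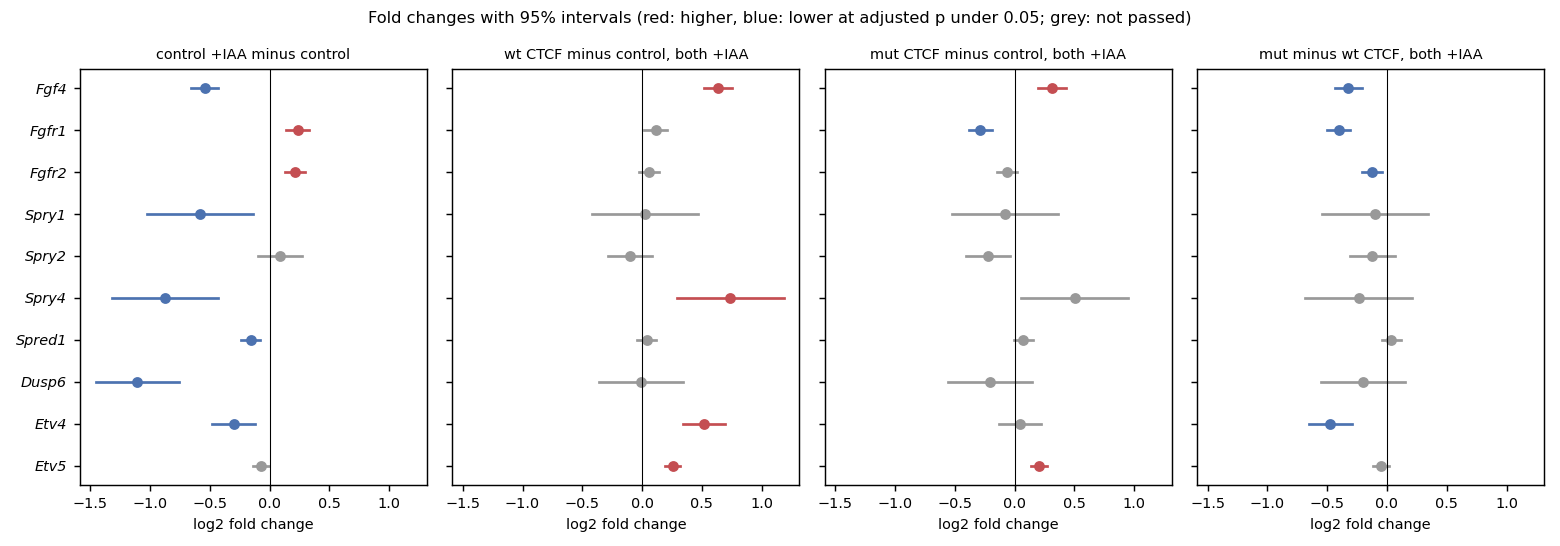
Log2 fold change (horizontal axes) of each of the 10 genes in 4 comparisons, with 95% intervals from the limma fit and colours for genes that passed an adjusted p of 0.05. The intervals of Fgf4 and Etv4 lie below 0 with IAA, above 0 for the wild-type line minus the IAA-treated control and below 0 for mutated minus wild-type CTCF, whereas that of Dusp6 leaves 0 only with IAA.

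Setting the wild-type CTCF line beside the IAA-treated control line asks what is changed by putting CTCF back. Transcription was higher in the wild-type line at 4 of the 10 genes (Fgf4, Spry4, Etv4 and Etv5) and lower at 0. Over all tested genes 31.6% passed, 21.5% higher and 10% lower, so 4 of 10 is near the background in number. Mutated CTCF against the same control was higher at Fgf4 and Etv5 and lower at Fgfr1, where 34.3% of all genes passed, 22% higher and 12.4% lower. After rescaling by median of ratios or to equal totals, Fgfr2 (log2 fold change -0.12, adjusted p = 0.0087, and -0.097, adjusted p = 0.023) and Spry2 (-0.27, adjusted p = 0.011, and -0.25, adjusted p = 0.019) were lower too, which brings 3 calls to 5. Both comparisons share the IAA-treated control libraries with the IAA effect, so a gene that is low in those libraries by chance would be higher in both.

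The 2 CTCF forms were then compared directly. Transcription was lower with the mutated form at 4 of the 10 genes and higher at 0, with 34.7% of all tested genes passing, 16.3% higher and 18.4% lower. Fgfr1 was at 0.756 times its wild-type mean (log2 fold change -0.40, SE 0.048, adjusted p = 8.9e-09), and Etv4 at 0.72 times (-0.47, SE 0.088, adjusted p = 4.5e-05). Fgf4 was at 0.799 times (-0.32, SE 0.057, adjusted p = 1.8e-05). Fgfr2 was at 0.917 times (-0.12, SE 0.042, adjusted p = 0.018), a call lost without the second wild-type library (-0.090, adjusted p = 0.18) or the first mutated library (-0.097, adjusted p = 0.18). Among the 5 inhibitors 0 passed. The log2 fold change of Spry2 was -0.12. It was -0.26 without the first wild-type library and reached 0.021 without another library, so its sign turned. With no mean-variance trend the call at Fgfr2 was lost (adjusted p = 0.19) and the other 3 were kept. The intervals of the inhibitors still allow differences as large as -0.55 at Dusp6 and -0.68 at Spry4.

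Both re-expression lines were also set against the untreated control, which asks how near each came to the starting level. Wild-type CTCF with IAA was higher at Fgfr1, Fgfr2, Etv4 and Etv5 and lower at Spry1, Spred1 and Dusp6, 7 of 10, with 43.2% of all genes passing (27.6% higher, 15.6% lower). With no mean-variance trend 5 passed, and Spry1 (adjusted p = 0.13) and Spred1 (adjusted p = 0.099) did not. Etv4 was only 0.22 higher on the log2 scale (adjusted p = 0.044). The call was lost without any 1 of the 4 libraries compared (0.20 to 0.23), after rescaling by median of ratios (0.16, adjusted p = 0.099) and, at 0.13, after scaling to the same total (adjusted p = 0.18). Mutated CTCF with IAA was higher at Fgfr2 and Etv5 and lower at Fgf4, Spry1, Dusp6 and Etv4, 6 of 10, with 37.8% passing (24.0% higher, 13.7% lower). With equal totals it was higher at 0 and lower at 7, and without the first untreated library 3 genes passed in all. With no mean-variance trend 2 passed, Dusp6 and Etv4, and Fgf4 (adjusted p = 0.091), Fgfr2 (0.13), Spry1 (0.10) and Etv5 (0.12) did not. Among these, Fgfr2 was lost without the first untreated library (0.11, adjusted p = 0.091) or the second mutated library (0.12, adjusted p = 0.076), and without either mutated library 4 genes passed. With wild-type CTCF 4 genes passed without the first untreated or the second wild-type library, and Spred1 was lost in both cases (-0.11, adjusted p = 0.075, and -0.10, adjusted p = 0.10).

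The order of the 4 groups differed between genes. In Fgf4 it ran from wild-type CTCF through untreated and mutated CTCF to the control with IAA, and only the first 2 neighbours in that order did not differ. Etv4 had the same order, with mutated CTCF and the control with IAA not different. Dusp6 and Spry1 began with the untreated control, and the 3 groups with IAA below it did not differ between neighbours (adjusted p from 0.40 to 0.97). In Spry4 no neighbours in the order differed. In Fgfr1 the upper pair was wild-type CTCF and the control with IAA, and the lower pair untreated and mutated CTCF, with a step between the pairs (adjusted p = 1.1e-04). The span between the highest and lowest group was 2.48-fold at Dusp6, 1.83-fold at Spry4, 1.58-fold at Spry1 and 1.55-fold at Fgf4, and 1.12-fold to 1.43-fold at the 6 others.

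Where the genes lie gives further context. None of the 10 genes except Fgfr2 overlapped another tested gene in GENCODE M21. The nearest tested gene on each side was taken for the other 9, since the annotated span of Fgfr2 holds 11 tested genes and its ends lie far from the RefSeq gene. Of these 18 neighbours 7 passed with IAA in either direction, near the 37.7% of all tested genes. Next to a gene that had passed, 4 of 14 neighbours passed in its direction and 0 in the opposite one, where 18.4% of all genes were lower and 19.4% higher. This difference was not tested.

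Fgf4 sits in a cluster with other FGF genes, and Fgf3 lies 2.9 kb from the start of its GENCODE span, which is 17877 bases long where RefSeq gives the gene 3860. Fgf3 stood at 31.8 and 39.7 normalized reads untreated and 34.5 and 28.6 in the control with IAA. Its log2 fold change was -0.17 (95% interval -0.68 to 0.34, adjusted p = 0.63), an interval that holds the change of Fgf4. Poc1b, a centriole gene 65.2 kb from Dusp6, fell with IAA as Dusp6 did (log2 fold change -0.47, adjusted p = 1.4e-08) and did not differ with wild-type CTCF (-0.066, adjusted p = 0.41) or mutated CTCF (0.071, adjusted p = 0.37). Ndfip1, an adaptor of ubiquitin ligases 120.9 kb from Spry4, fell with IAA (-0.33, adjusted p = 2.3e-07) and was higher with both CTCF forms (0.28 each, adjusted p = 9.2e-06 and 7.7e-06). Tacc1, 257.1 kb from Fgfr1, rose with IAA (0.25, adjusted p = 5.4e-05) but did not pass between the CTCF forms (-0.076, adjusted p = 0.23). Next to Etv4, Dhx8 lies 2.4 kb away and did not pass with IAA (-0.029, adjusted p = 0.70). Against the control with IAA, Dhx8 was higher with wild-type (0.19, adjusted p = 0.0065) and with mutated CTCF (0.30, adjusted p = 2.0e-05). Spata5, next to Spry1, fell with IAA (-0.097, adjusted p = 0.0091). Next to genes that did not pass with IAA, Trim52 (by Spry2, -0.50, adjusted p = 4.0e-04) and Dgkg (by Etv5, -0.46, adjusted p = 0.021) fell. Gm48970, also by Spry2, rose (0.65, adjusted p = 0.044). In the comparison of mutated with wild-type CTCF, 5 of 18 neighbours passed, against 34.7% of all tested genes. Next to a gene that had passed there, 0 of 6 neighbours passed in its direction and 0 in the opposite one. In that comparison 16.3% of all genes were higher and 18.4% lower.

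**Figure D3:**
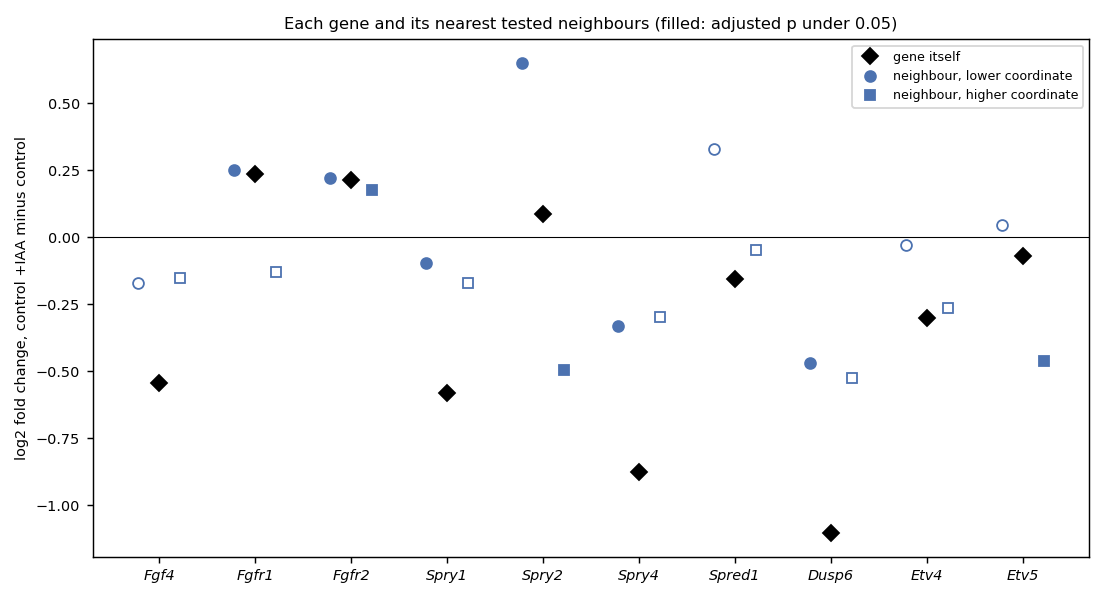
Log2 fold change with IAA (vertical axis) of each of the 10 genes (diamonds) and of its nearest tested gene at lower (circles) and higher (squares) coordinates, filled where the adjusted p was under 0.05. Dusp6 lies at -1.10 with Poc1b at -0.47 beside it, while both neighbours of Fgf4 are unfilled. Those drawn for Fgfr2 flank its long annotated span and are left out of the counts.

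The other genes of the pathway were followed through 5 lists of 107 genes, chosen by role. Of these, 88 had a value and 86 were tested. With IAA, 21 were higher and 19 lower, where 19.4% of all tested genes were higher and 18.4% lower, and the median log2 fold change was -0.031. Between mutated and wild-type CTCF, 20 were higher with mutated CTCF and 17 lower, against 16.3% and 18.4% of all genes, with a median of -0.0093. The counts of each list below are to be read against the same shares, and no list was tested against other genes.

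Of the other FGF ligands 7 were tested, and 2 rose and 1 fell with IAA. Fgf18 rose from 65.3 to 94.1 in group means (log2 fold change 0.52, adjusted p = 0.012), and was also higher with mutated than with wild-type CTCF (0.45, adjusted p = 0.031). The ligand that fell was Fgf1, named after its values were seen because it is on few reads. It had 33 and 26 reads untreated, 1 and 6 in the control with IAA, 13 and 11 with wild-type CTCF and 13 and 18 with mutated CTCF (adjusted p = 3.3e-06 with IAA). Among 13 other receptors and co-receptors, 2 rose and 6 fell with IAA. The syndecan Sdc1, a heparan sulphate co-receptor, fell from 295 to 140.5 (log2 fold change -1.06, adjusted p = 7.0e-10), and Hs6st1, which sulphates heparan chains, rose from 5351 to 7155 (0.42, adjusted p = 6.2e-12). Between CTCF forms Gpc3 was higher with mutated CTCF (0.30, adjusted p = 8.9e-09) and Sdc4 lower (-0.47, adjusted p = 3.4e-07).

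Of 28 transducers, 7 rose and 4 fell with IAA, and 5 were higher and 7 lower with mutated than with wild-type CTCF. The scaffold gene Ksr1 rose from 1504 to 2102 with IAA (log2 fold change 0.48, adjusted p = 1.5e-10). The ETS gene Elk3 fell from 326 to 164 (-0.99, adjusted p = 1.5e-09) and was lower with mutated than with wild-type CTCF (200.1 against 288, -0.53, adjusted p = 2.4e-04). Ets2 was higher with mutated CTCF (0.39, adjusted p = 2.9e-05). Of 19 other inhibitors, 7 rose and 3 fell with IAA, and 9 were higher and 2 lower with mutated than with wild-type CTCF. Rasa2, a RAS inactivator, rose from 2536 to 4071 (0.68, adjusted p = 5.0e-17) and the ubiquitin ligase gene Cblb fell (-0.20, adjusted p = 3.7e-05). The phosphatase gene Dusp16 was higher with mutated CTCF (0.28, adjusted p = 1.6e-07) and Dusp9 lower (-0.50, adjusted p = 0.0013).

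Of 19 other ERK-responsive genes tested, 3 rose and 5 fell with IAA, and 2 were higher and 5 lower with mutated than with wild-type CTCF. Etv1, which belongs to the same subfamily as Etv4 and Etv5, rose from 2203 to 3642 with IAA (log2 fold change 0.73, adjusted p = 1.9e-18), opposite to Etv4. It did not differ from the control with IAA with either CTCF form (-0.056 and -0.045). Arc, an activity-induced gene, fell from 101.8 to 54.8 with IAA (-0.88, adjusted p = 9.0e-05). Ccnd1, which encodes cyclin D1, had a mean of 638 in the wild-type line and 324 in the mutated line (-0.98, adjusted p = 1.4e-11). Plaur, the urokinase receptor gene, was higher with mutated CTCF (0.71, adjusted p = 0.0044). Myc, named after its values were seen since its mean is under 50, rose from 9.38 to 36.5 with IAA (1.90, adjusted p = 7.8e-07).

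**Figure D4:**
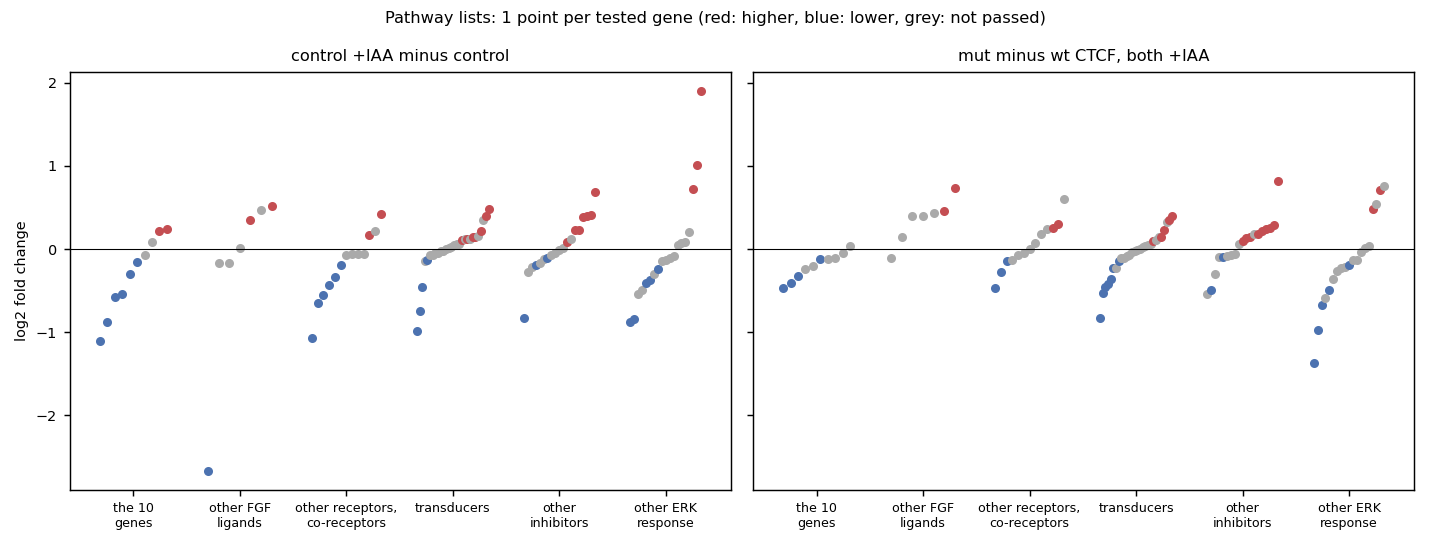
Log2 fold change (vertical axis) of the 10 genes and of the tested genes of the 5 pathway lists, 1 point per gene, with IAA in the control line (left) and for mutated minus wild-type CTCF (right). Each list holds points on both sides of 0, from Fgf1 at -2.66 to Myc at 1.90 with IAA.

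The widest spans of the 10 were those of Dusp6, Spry4 and Spry1, and the genes most like these 3 over the 8 libraries were sought among 11851 others with a mean of at least 50. Likeness was the root mean square difference of centred log2 values. For Dusp6 these were Steap2 (0.11) and Cfap69 (0.15), against a median of 0.56. Steap2 had group means of 139.6 untreated, 65.2 in the control with IAA, 65.2 with wild-type and 51.4 with mutated CTCF. For Spry4 they were Hyal1 (0.11) and Aars2 (0.14), and for Spry1 Fhod1 (0.11) and BC034090 (0.14), against medians of 0.40 and 0.37. These are descriptions over 8 libraries of 4 groups.

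Naive and other lineage markers were read beside these results. All 7 naive pluripotency markers listed had values, with sums of 50557 to 51191 normalized reads untreated, 52382 to 54035 in the control with IAA, 56981 to 60011 with wild-type CTCF and 56986 to 59293 with mutated CTCF. With IAA in the control line Tfcp2l1 rose (13438 to 18581, adjusted p = 5.2e-15), while Zfp42 (log2 fold change -0.15, adjusted p = 7.2e-05), Esrrb (-0.14, adjusted p = 1.4e-04) and Tbx3 (-0.16, adjusted p = 7.6e-04) fell. Against the IAA-treated control, 4 of these 7 were higher and 0 lower with wild-type CTCF, where 21.5% of all tested genes were higher. With mutated CTCF 6 were higher and 0 lower, where 22% of all tested genes were higher. The 4 formative markers with a value summed to 804 to 825 untreated, 978 to 1005 in the control with IAA, 1060.5 to 1173 with wild-type CTCF and 763 to 764 with mutated CTCF. Fgf5 and Pou3f1 had no value among the genes used here. With IAA in the control line Dnmt3b (478 to 626, adjusted p = 2.4e-05) and Lef1 (259.8 to 309.6, adjusted p = 0.046) rose and Otx2 fell (72.5 to 51.6, adjusted p = 0.047). With mutated CTCF Dnmt3b had a mean of 572, above untreated, and Lef1 145, below it. For primitive endoderm, 4 of 7 markers had values, summing to 195 to 228 untreated and 233 to 331 with IAA. Of these, Pdgfra (19.1 to 67.8, adjusted p = 7.7e-09) and Gata4 (104 to 164, adjusted p = 3.6e-04) rose in the control line with IAA and Gata6 fell (77.4 to 51.1, adjusted p = 0.024). For trophectoderm 4 of 6 had values, summing to 611 to 700.4 outside the wild-type line and 896 to 990 in it. For fibroblasts 0 of 5 had values. For neural cells 2 of 5 did, summing to 156 to 159 untreated and 221 to 284 with IAA. That neural sum was nearly all Nes, whose mean went from 150 to 210 in the control line with IAA (adjusted p = 3.9e-04). Pax6, the other gene, was under the minimum mean and was not tested. Its group means were 7.25 untreated, 12.1 in the IAA-treated control, 15.5 in the wild-type line and 4.53 in the mutated line. The part of these markers in the results was not tested. In bulk samples a change in the number of cells of a kind and a change per cell cannot be told apart.

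Depth ran from 15671114 to 21561141 reads per library, with the control with IAA lowest (15671114 and 17187354). One read was worth 0.836 to 1.19 normalized reads. The replicates of each group differed by more than counting error, with a chi-square per degree of freedom of 1.30 to 3.07, highest in the wild-type CTCF line. Against the IAA-treated control, the median log2 fold change of all genes was 0.057 in the wild-type line and 0.055 in the mutated line. The share of higher genes among those that passed went from 68.3% to 50.3% and from 63.9% to 50.2% when libraries were rescaled by median of ratios. It went from 51.3% to 38.5% with IAA when libraries were given equal totals.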

How the data were processed

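TT-seq of E14 mouse embryonic stem cells was analysed in 8 libraries, 2 in each of 4 groups taken with their replicate numbers from the sample titles. The authors deposited 1 signal value per gene and library, named as normalized counts; Trim Galore, STAR, featureCounts, DESeq2 and the build mm10 are named, per the submitters' processing notes, with no versions, roles or settings. In each library 100% of values were whole multiples of 1 step (within 0.01), so reads were recovered by division for depth, the read numbers given, the replicate comparison and the simulation. In the second mutated CTCF library that step, 0.989, is close to 1, so its read numbers, depth and chi-square are less sure, and no count test was run. The table had 0 columns of other samples. limma (version 3.58.1, R 4.3.3) was fitted to log2(value + 1) across all 15818 genes with a mean of at least 10, with 1 coefficient per group, a mean-variance trend and 4 residual degrees of freedom. Benjamini-Hochberg adjustment ran over all tested genes in each of 6 comparisons, at 0.05. This scale understates the fold of low genes. Adjusted p-values in the text come from that limma fit, and its 95% intervals are unadjusted. On simulated reads for the IAA comparison (15838 genes tested), 62% of genes changed 1.5-fold and 88% of those changed 2-fold were called, with 7 false calls. The simulation gave every gene and library the same spread beyond counting error. It changed only a small set of genes, where 37.7% passed with IAA in the data. Its rates are therefore not the rates of these data.

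Positions are from GENCODE M21 on GRCm38, which is mm10, matched by gene ID (99.9% of tested IDs), and promoter windows from RefSeq. A looser 12-letter form of the CTCF motif, searched first, was in 2 of the 8 member windows (Fgf4 and Spry2) and 9.27% of all, and gave way to the consensus. GGAA was added after those matches were seen. The 10 genes, the lists and the markers were chosen with earlier results of these data known. Named beside them were the highest and lowest gene of each list past the threshold, with a mean of at least 50, with IAA and between CTCF forms. Of the nearest tested neighbours, those that passed with IAA were named, and Fgf3 and Dhx8 beside them. The 2 genes most like each of the 3 widest-ranging members were named too. Values of the gene encoding CTCF are not reported here. Alternatives were a pseudocount of 0.5 or of 10, testing without the low-value filter, raising its minimum mean to 50, 2 rescalings, only the compared groups, no trend, a replicate block and leaving out each library.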

Additional observations from a re-analysis of the deposited data

Results flagged for a closer look

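At 4 genes the effect of mutated CTCF differed from that of wild-type CTCF, each measured against the control with IAA, by limma's test of the difference itself. Since the control is shared, this is the direct comparison of the 2 forms, in which 34.7% of all tested genes passed, so 4 of 10 is near the background. The difference (mutated minus wild type, log2) was -0.32 at Fgf4, with effects of 0.31 and 0.63. At Fgfr1 it was -0.40, with effects of -0.29 and 0.12. It was -0.12 at Fgfr2, with effects of -0.065 and 0.059, and this one was lost when the second wild-type or the first mutated library was left out, and without the mean-variance trend. At Etv4 it was -0.47, with effects of 0.045 and 0.52. Each CTCF form is 1 line, so form and line cannot be told apart.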

How the results depend on the processing

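Across the 10 genes and 6 comparisons, 953 of 1014 values recomputed under an alternative kept their side of the threshold, 41 fell short of it and 20 newly passed it. The sign turned in 0 values of genes that had passed and in 16 of genes that had not. Without the mean-variance trend the genes called of the 10 went from 8 to 5 with IAA from 6 to 2 for mutated CTCF against untreated, from 7 to 5 for wild type against untreated (Spry1 and Spred1 lost), from 4 to 3 for wild type against the IAA-treated control (Spry4 lost) and from 4 to 3 between the forms (Fgfr2 lost), and over all genes from 5967 to 3946 with IAA, 4991 to 2379 with wild-type CTCF, 5433 to 3228 with mutated CTCF, 5489 to 3263 between the forms and 5975 to 3869 for mutated CTCF against untreated. Rescaling by median of ratios and to equal totals each moved the calls with mutated CTCF against the control with IAA from 3 to 5. Leaving out 1 library gave 6 to 8 calls with IAA, 3 to 4 with wild-type CTCF, 3 to 4 with mutated CTCF, 3 to 5 between forms, and 4 to 7 and 3 to 6 for wild-type and mutated CTCF against untreated. Without the second wild-type library, 3270 genes passed for the wild-type line against the IAA-treated control. Among called genes the share that was higher went from 64.0% to 51.8% and 45.5% (wild type against untreated) and from 63.6% to 52.1% and 43.1% (mutated against untreated) with the 2 rescalings, and from 68.3% to 58.7% with equal totals for the wild-type line against the IAA-treated control. With a minimum mean of 50, Spry4 was not tested. In the wild-type line against the IAA-treated control 4 genes still passed without it, so another gene newly passed there. The count tests planned for recovered reads, with edgeR and DESeq2, were not run because the recovery of whole reads was not sure enough in the second mutated CTCF library. Same-numbered replicates did not deviate together gene by gene (mean correlation 0.0037 across genes, from -0.022 to 0.028). That correlation leaves out a shift common to all genes, so it cannot say whether the numbers pair the samples. The second library had the higher median-of-ratios factor in each of the 4 groups. Over all genes, a replicate block moved the calls with IAA from 5967 to 6423. With the replicate block, 9, 5, 4, 4, 7 and 7 of the 10 genes passed in the 6 comparisons, against 8, 4, 3, 4, 7 and 6 without it. Spry1 and Spry4 rest on 25 to 99 reads a library.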
